A study of Zygosaccharomyces parabailii with 12 samples.

Results

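The response of Zygosaccharomyces parabailii to lactic acid was compared between 42 h and 18 h of fermentation. For every gene the difference between lactic acid and control at 42 h was set against the same difference at 18 h, on the log2 scale, as (lactic acid 42 h minus control 42 h) minus (lactic acid 18 h minus control 18 h). The samples were chosen by the labels alone, and 11 of the 12 libraries of the series entered: lactic acid at 42 h (n = 3), control at 42 h (n = 3), lactic acid at 18 h (n = 3) and control at 18 h (n = 2). Control at 18 h replicate 2 held 4606 counts and was left out. All cultures were of strain ATCC60483, an interspecies hybrid, grown under microaerobic conditions in batch bioreactors in Verduyn medium at pH 3. The medium of the lactic acid groups held 40 g per liter lactic acid, and that of the control groups held none. Cultures were in log phase at 18 h and past the diauxic shift at 42 h. The study chose these times for comparable growth kinetics, and its authors had earlier found slower growth and glucose use with lactic acid. Whether treated and control cultures were at the same stage at a given hour was not tested here. The samples of a group were taken in triplicate from the fermentation. No source says that they came from separate cultures, so the p-values speak only of the scatter between these libraries, and that scatter may be technical.

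Lactic acid is a weak organic acid, which at low pH is largely undissociated, enters the cell by diffusion and releases protons in the cytosol. Yeasts meet such a load with proton pumps and with changes of the plasma membrane and cell wall, at a cost in ATP and growth. When glucose runs out, yeast cells pass the diauxic shift: in S. cerevisiae, genes of ribosomes and of glycolysis are turned down, and genes for the use of ethanol and glycerol, for storage carbohydrates and for stress protection are turned up. A response to acid measured on either side of this shift is therefore set against a different control transcriptome. In the gene identifiers of Z. parabailii the suffix A marks copies from Z. bailii, B marks copies from another Zygosaccharomyces parent, and N marks genes assigned to neither. Gene names below are those of S. cerevisiae homologs, a slash stands for a homolog of either gene of a duplicated S. cerevisiae pair, and the roles given are those known from S. cerevisiae.

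Levels are given as counts per 1000000 counts (CPM) of a library size scaled with the TMM method. Total counts were 8979873 to 17565769 per library, each library had a count in 9814 to 9830 genes, and TMM factors were 0.806 to 1.11. Libraries of the same group correlated at r = 0.958 to 0.995 in log2 CPM across genes, the lowest value being that between lactic acid at 42 h replicates 1 and 3. No libraries of a group differed as little as counting noise would let them. Mitochondrial genes held 3.31 to 4.66% of a library at 42 h with lactic acid, against 1.62 to 2.39% without it. At 18 h the shares were 2.76 to 2.81% with lactic acid, against 0.935 and 1.38% without it. The RNA is that of whole cultures, in which fewer cells of a state and less RNA per cell cannot be told apart.

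The response to lactic acid differed between the times at many genes. Of 9683 genes tested, 1505 had a positive difference, that is, a response more toward lactic acid at 42 h than at 18 h, and 895 had a negative one (edgeR's quasi-likelihood test, two-sided, adjusted p below 0.05 and an absolute log2 difference of at least 1). These counts are 15.5% and 9.24% of the genes tested, and counts of gene lists below are to be read against these shares. By adjusted p alone 2795 genes were positive and 2407 negative. The median absolute difference of all genes was 0.59 on the log2 scale, and the extremes were 4.61 and -7.07. In 3397 genes the estimated responses at 42 h and 18 h had opposite signs.

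The positive and negative calls were made up differently. Over all 9683 genes tested, 412 were upregulated and 2000 downregulated at 18 h, and 683 were upregulated and 959 downregulated at 42 h. The make-up of the calls is to be read against these unequal counts. Of the 1505 positive genes, 887 were downregulated at 18 h and not called at 42 h, 252 were upregulated at 42 h and not called at 18 h, and 58 were upregulated at 42 h and downregulated at 18 h. Another 73 were downregulated at both times with the larger change at 18 h. Their median response was 0.13 at 42 h and -1.44 at 18 h, so the typical positive gene was below control in log phase and near control after the shift. Of the 895 negative genes, 306 were downregulated at 42 h alone, 94 were upregulated at 18 h alone and 6 were downregulated at 42 h and upregulated at 18 h. The largest class of negative genes, 480, was called at neither time taken singly. The median response of the 895 negative genes was -0.81 at 42 h and 0.56 at 18 h. Of them 84.4% had opposite signs at the 2 times, against 46.5% of the positive genes and 3397 of all 9683 genes. A difference of at least 1 between responses each under 1 in size requires opposite signs. These shares are thus partly set by the call rule, and only 222 positive genes were called at neither time.

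Positive genes had a median coding length of 1614 bases and negative genes one of 786 bases, against 1230 bases over all genes tested. With the trend of counts on coding length removed from every library, 1303 genes were positive and 733 negative, of which 1122 and 564 were among the calls above. The calls depended on the scaling of libraries. TMM put the median difference of all genes at 0.03, median-of-ratios scaling at -0.01, upper-quartile scaling at -0.18 and library totals alone at -0.51. Positive genes made up 62.7% of the calls with TMM, 58.1% with median-of-ratios scaling, 43.3% with upper-quartile scaling and 19.4% with library totals. No gene called with TMM was called with the opposite sign under any of these scalings. With library totals 628 of 9684 genes tested were positive and 2608 negative. List counts and list medians given below with library totals are to be read against these counts and the median of -0.51. Without lactic acid at 42 h replicate 1, 1210 genes were positive and 793 negative.

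**Figure D1:**
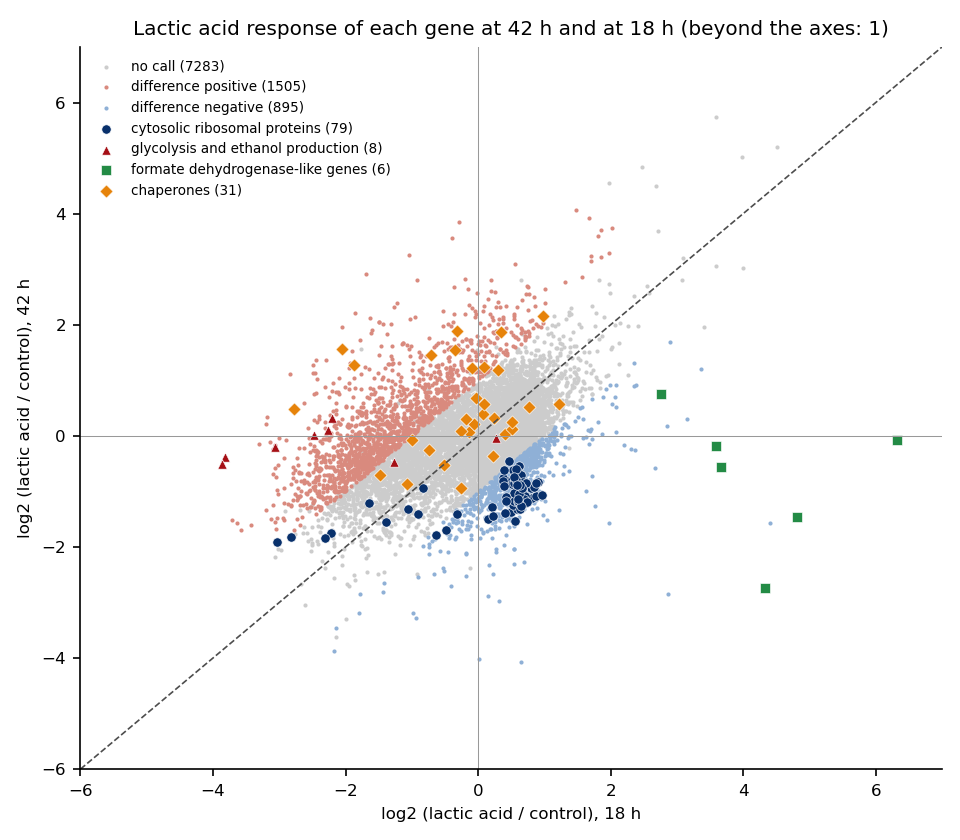
Each point is 1 of 9683 genes, with the log2 ratio of lactic acid to control at 42 h on the vertical axis and at 18 h on the horizontal axis; the dashed line marks equal responses. Red and blue points are the 1505 positive and 895 negative calls, and larger symbols mark 4 gene lists. Most of the 79 ribosomal protein genes lie together to the lower right of the line, 7 of the 8 glycolytic genes lie to its left, and the 6 formate dehydrogenase-like genes lie far to the right.

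Of 79 cytosolic ribosomal protein genes tested, 68 were negative and 1 was positive. Their median difference was -1.57, against 0.03 over all genes, with a median response of -1.09 at 42 h and 0.57 at 18 h. Taken singly, 45 of the 79 were called downregulated at 42 h, against 959 of all 9683 genes. At 18 h none was called upregulated and 7 were called downregulated, against 412 and 2000 of all genes. These genes took 0.799, 1.03 and 1.21% of the counts in the lactic acid libraries at 42 h, against 2.50, 2.76 and 3.07% in control at 42 h. They took 10.2, 10.3 and 10.5% in lactic acid at 18 h, against 6.34 and 7.60% in control at 18 h. Lactic acid libraries thus held the lowest share of all 11 at 42 h and the highest at 18 h, with no overlap between any of the 4 groups.

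RPS3 (B01020_A, chromosome 2, 200219 to 200956), for a protein of the small subunit near the mRNA entry site, had 135, 150.1 and 195 CPM in lactic acid and 423, 476 and 496 CPM in control at 42 h. Its 18 h levels were 1759, 1557 and 1694 CPM in lactic acid and 1208 and 1062 CPM in control. The difference of the responses was -2.09 ± 0.234 (approximate SE, adjusted p = 4.76e-05). Lactic acid libraries were the lowest of all at 42 h and the highest of all at 18 h. A copy of RPS6B/RPS6A (A08930_B), the best expressed member, had a difference of -1.91 ± 0.273 (adjusted p = 0.000205). RPS22B (K01640_B, chromosome 11, 287001 to 287596), for a small subunit protein but outside the list, had 14.7, 15.8 and 17 CPM in lactic acid and 73.5, 79.4 and 83.4 CPM in control at 42 h, and 48.1, 55.7 and 53.8 CPM in lactic acid and 38.1 and 34.3 CPM in control at 18 h. Its difference was -2.85 ± 0.155 (adjusted p = 6.55e-07).

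A few ribosomal protein genes did not follow. One copy of RPL3 (H02360_B), which encodes a protein at the peptidyl transferase center, had 474, 439.5 and 536 CPM in lactic acid and 839, 951 and 992 CPM in control at 42 h. At 18 h it had 1261, 1157 and 1327 CPM in lactic acid and 2384 and 2041 CPM in control. Lactic acid libraries were thus below control at both times, and the difference was -0.12 ± 0.205 (adjusted p = 0.653). The only positive member was a copy of RPL5 (H04400_B), for the protein that carries 5S rRNA, with a difference of 1.12 ± 0.200 (adjusted p = 0.000777). It was downregulated by lactic acid at both times, with responses of -1.90 at 42 h and -3.03 at 18 h, and was not called without control at 18 h replicate 1 or with the scalings by upper quartile or library totals. Ribosomal protein genes are short, with a median coding length of 555 bases, and 47 of the 79 were negative and 2 positive once the length trend was removed.

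Other parts of protein synthesis split. Of 62 genes of the mitochondrial ribosome 21 were negative and none positive by edgeR (DESeq2 gave 23 and none), with a median difference of -0.81, and 2 had a positive difference at an unadjusted p below 0.05. Their share of the counts at 42 h was 0.0917 to 0.121% in lactic acid and 0.170 to 0.181% in control, and at 18 h it was 0.302 to 0.378% in lactic acid and 0.206 and 0.224% in control. The groups kept the order seen for the cytosolic ribosome. MRPS28, for a small subunit protein of the mitochondrial ribosome, had differences of -1.56 ± 0.226 in the A copy (C07440_A) and -1.55 ± 0.254 in the B copy (A01960_B). With the length trend removed 6 of the 62 were negative, and leaving out single libraries gave 13 to 25, the lowest without lactic acid at 42 h replicate 1. Ribosome biogenesis had 21 negative and 4 positive genes of 127, with a median of -0.46. NOP6 (G05650_B), which acts in assembly of the small subunit, had 4.48, 4.12 and 3.98 CPM in lactic acid and 16.4, 14.7 and 18.1 CPM in control at 42 h, and a difference of -2.36 ± 0.191 (adjusted p = 7.55e-06). Of the nucleolar protein gene NSR1, the A copy (B02340_A) was negative at -1.30 ± 0.227 and the B copy (G04290_B) had -0.48 ± 0.208 (adjusted p = 0.0709).

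Cytosolic aminoacyl-tRNA synthetases, which charge tRNAs, had 8 positive genes and 1 negative gene of 20 with TMM, but 1 positive and 3 negative with library totals. The lysyl-tRNA synthetase gene KRS1 (A04160_B) had 80.2, 74.8 and 65.3 CPM in lactic acid and 96.9, 95.5 and 96.8 CPM in control at 42 h. Its levels at 18 h were 138, 110.5 and 100.2 CPM in lactic acid and 472 and 457 CPM in control, and the difference was 1.60 ± 0.189 (adjusted p = 6.57e-05). Control at 18 h was the high group. The same held for PAB1 (A01690_B), for the poly(A)-binding protein, whose difference was 1.41 ± 0.200 (adjusted p = 0.000195). PAB1 was downregulated at both times, by 1.51 at 42 h and 2.93 at 18 h on the log2 scale. Translation initiation and elongation factors had 2 positive and 2 negative genes of 21. RNA polymerases I and III, which make ribosomal and transfer RNA, had 4 positive and 1 negative of 22, but none positive and 3 negative with library totals.

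**Figure D2:**
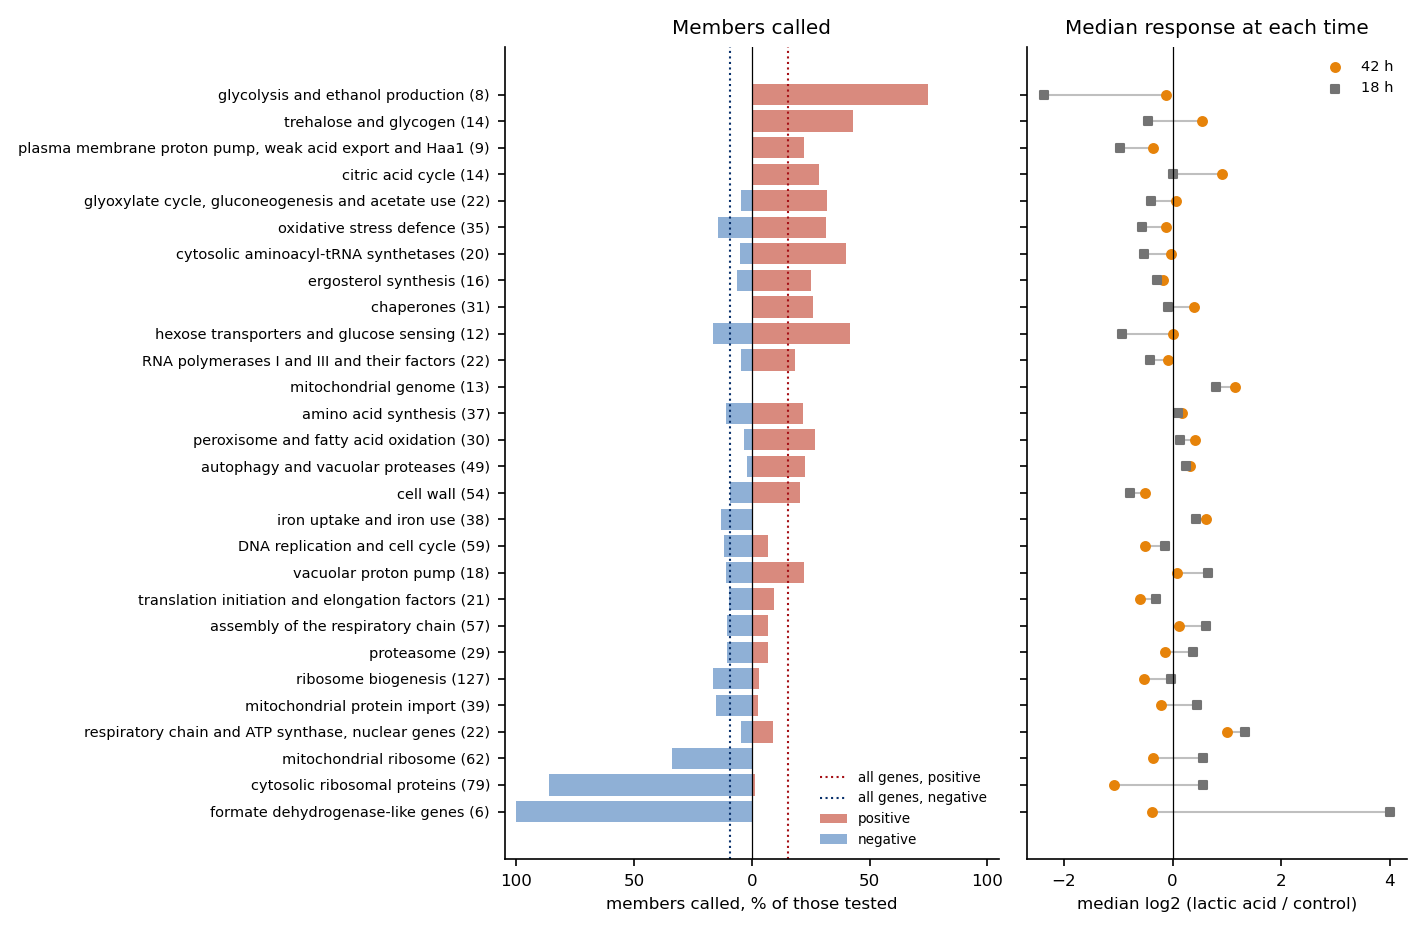
Left, the share of each list's tested members called positive (red, to the right) and negative (blue, to the left), in %, with the shares over all genes as dotted lines (15.5% and 9.24%); the number tested is in parentheses. Right, the median log2 ratio of lactic acid to control of each list at 42 h (orange circles) and at 18 h (grey squares). Formate dehydrogenase-like genes and both kinds of ribosomal protein genes lie at the negative end, and glycolysis and storage carbohydrates at the positive end.

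Formate dehydrogenase, the product of FDH1, oxidizes formate to carbon dioxide with reduction of NAD+. The 6 formate dehydrogenase-like genes, a list that the study chose on these samples and that is therefore not independent evidence of a direction, were all negative, with a median difference of -5.26. Their median response was -0.37 at 42 h and 4 at 18 h on the log2 scale. Summed over the 6 genes, lactic acid libraries had 427, 465 and 373 CPM and control libraries 804, 794 and 592 CPM at 42 h. At 18 h lactic acid libraries had 549, 553 and 697 CPM and control libraries 21.99 and 25.02 CPM. The control at 18 h was the group that stood apart, and no library of the other groups was below 373 CPM.

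F04070_N (chromosome 6, 839100 to 840230) had 6.21, 5.90 and 7.07 CPM in lactic acid and 48.6, 45.8 and 33.8 CPM in control at 42 h, against 32.7, 36.2 and 41.6 CPM in lactic acid and 1.74 and 1.89 CPM in control at 18 h. Its log2 response was -2.74 at 42 h and 4.33 at 18 h, both called, which gave a difference of -7.07 ± 0.274 (adjusted p = 1.09e-07). N02280_N (chromosome 14, 450924 to 452054) had the same pattern, with -1.46 at 42 h, 4.82 at 18 h and a difference of -6.28 ± 0.501. I01900_B (chromosome 9, 405481 to 406734) had 95.1, 106 and 83.7 CPM in lactic acid and 106, 109 and 84.7 CPM in control at 42 h, so that the groups overlapped there. At 18 h it had 247, 249.8 and 339 CPM in lactic acid and 2.98 and 3.90 CPM in control, and the difference was -6.39 ± 0.283 (adjusted p = 2.54e-07). O01850_A had a difference of -4.24 ± 0.208, while H05680_N and P02220_N, below 6 CPM in every library, had -3.78 ± 0.598 and -2.02 ± 0.439. The coding length of 1131 bases is shared by F04070_N, N02280_N, H05680_N and P02220_N. Reads that fit more than 1 copy equally well were not counted, so that levels of near-identical copies are uncertain.

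Several other negative genes were low in lactic acid at 42 h. ACB1, for the acyl-CoA-binding protein that carries long-chain acyl-CoA esters, had 16.6, 22.2 and 30.1 CPM in lactic acid and 112, 142 and 133 CPM in control at 42 h in its B copy (A04710_B). The groups overlapped at 18 h, with 186, 178 and 150.3 CPM in lactic acid and 172 and 122 CPM in control, and the difference was -2.72 ± 0.305 (adjusted p = 4.87e-05). The A copy of ACB1 (E04190_A) had a difference of -2.49 ± 0.251 (adjusted p = 2.59e-05). I05810_A, whose product is described as Ddi3-like (DDI3 of S. cerevisiae encodes a cyanamide hydratase), had 8.97, 7.59 and 13.8 CPM in lactic acid and 155, 176 and 162 CPM in control at 42 h. It stood at 0.929 to 1.099 CPM in every library at 18 h, and the difference of -4.04 ± 0.417 (adjusted p = 2.96e-05) came from the later time alone. N02710_A, named after EGO4/EGO2, had 177, 188 and 350.0 CPM in lactic acid and 1065, 1135 and 1262 CPM in control at 42 h, with 19.02 to 25.9 CPM in lactic acid and 10.2 and 17.4 CPM in control at 18 h (difference -2.98 ± 0.414).

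The negative gene with the largest difference in absolute size, by a margin under its SE, lacks a description. B09945_N (chromosome 2, 1918710 to 1918880) had 0.517, 0.469 and 0.398 CPM in lactic acid and 75.2, 89.4 and 70.6 CPM in control at 42 h. At 18 h it had 3.98, 4.74 and 2.79 CPM in lactic acid and 6.86 and 2.96 CPM in control, so that only control at 42 h was high, and the difference was -7.07 ± 0.5 (adjusted p = 4.19e-06). D01120_N, also without a description, had 15.4, 15.1 and 16.3 CPM in lactic acid and 233, 270.0 and 286 CPM in control at 42 h, and 3.55 to 7.495 CPM in all libraries at 18 h, with a difference of -4.73 ± 0.255. Both were chosen after their values were seen, for their lack of a description kept them out of the ranked list.

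PRX1, for the mitochondrial peroxiredoxin, reversed its response in the A copy (B07620_A, chromosome 2, 1454989 to 1455732). It had 52.6, 65.3 and 69.0 CPM in lactic acid and 173, 186 and 177 CPM in control at 42 h, and 140.3, 156 and 193 CPM in lactic acid and 86.7 and 71.3 CPM in control at 18 h. The difference was -2.57 ± 0.220 (adjusted p = 1.03e-05). In the B copy (H02340_B) lactic acid libraries had 212, 253 and 309 CPM and control libraries 272, 302 and 320.3 CPM at 42 h, which overlapped, and the difference was -1.52 ± 0.269 (adjusted p = 0.000759). Copies of NCE101, implicated in export of proteins without a signal sequence, were also negative, at -3.03 ± 0.227 (B04990_N) and -2.45 ± 0.353 (G01580_N). Each lies 41 or 42 bases from a gene with a zinc cluster DNA-binding domain that was negative too (B05000_N at -3.23 ± 0.711 and G01570_N at -2.37 ± 0.621), and reads of such neighbors cannot be told apart if they overlap. F06180_N, related to a multidrug transporter of the major facilitator superfamily, had a difference of -2.85 ± 0.263, with 3.15 at 18 h and 0.31 at 42 h.

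Genes of glycolysis differed mainly through the earlier time. Of 8 genes tested 6 were positive and none negative, with a median difference of 2.51 and a median response of -0.12 at 42 h and -2.37 at 18 h. They took 0.401 to 0.418% of the counts at 42 h in lactic acid and 0.497 to 0.577% in control, and at 18 h 0.651 to 0.896% in lactic acid and 2.03 and 2.46% in control. Control at 18 h was above every other group. Both copies of GPM1, for phosphoglycerate mutase, were not called.

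Pyruvate kinase, which makes pyruvate and ATP, is encoded by homologs of CDC19/PYK2. The copy A00760_A (chromosome 1, 153152 to 154825) had 43.6, 40.2 and 45.2 CPM in lactic acid and 44.9, 56.0 and 66.9 CPM in control at 42 h. Its 18 h levels were 31.2, 33.3 and 28.7 CPM in lactic acid and 547 and 334 CPM in control. The groups overlapped at 42 h and were far apart at 18 h, and the difference was 3.45 ± 0.274 (adjusted p = 7.36e-06). The other copy, F00120_A, had 3.36 ± 0.257 (adjusted p = 6.62e-06). Enolase had 1596, 1569 and 1770 CPM in lactic acid and 1516, 1547 and 1817 CPM in control at 42 h for the A copy (J04500_A), and 1812, 1870 and 1666 CPM in lactic acid and 10720 and 9128 CPM in control at 18 h. Its difference was 2.49 ± 0.220 (adjusted p = 1.14e-05), and that of the B copy (A08220_B) was 2.87 ± 0.224 (adjusted p = 6.89e-06). Phosphoglucose isomerase, PGI1, had 2.52 ± 0.252 in the A copy (E04320_A) and 2.36 ± 0.284 in the B copy (A04580_B).

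Hexose transport and glucose sensing gave calls in both directions, 5 positive and 2 negative of 12, but 2 positive and 3 negative with library totals. The list includes homologs of FFZ2 sugar transporters that the study singled out on these samples, and their calls are not independent evidence of a direction. The copy A01890_B of HXT5/HXT3 (chromosome 1, 399804 to 401546) had 16.3, 8.90 and 11.7 CPM in lactic acid and 127, 129 and 107 CPM in control at 42 h, and 16.98, 18.1 and 18.5 CPM in lactic acid and 27.1 and 40.9 CPM in control at 18 h. Lactic acid libraries were below control at both times and by more at 42 h, which gave -2.35 ± 0.298 (adjusted p = 0.000103). The next gene along the chromosome, A01900_B, a homolog of HXT7/HXT4, was downregulated by similar amounts at both times, by 1.5 at 42 h and 1.3 at 18 h on the log2 scale, and had a difference of -0.20 ± 0.216 (adjusted p = 0.449). The 5 positive genes of the list encode regulators and no transporter: homologs of MTH1/STD1, which act in glucose sensing upstream of hexose transporter genes, of MIG1, the repressor of glucose-repressed genes, and of MIG3/MIG2. MTH1/STD1 had 1.88 ± 0.280 (H02580_B) and 1.5 ± 0.239 (B07400_A). MIG1 had 33.6, 13.6 and 8.46 CPM in lactic acid and 37.5, 38.3 and 31.5 CPM in control at 42 h for B02140_A, and 3.45, 4.05 and 1.94 CPM in lactic acid and 26.0 and 22.7 CPM in control at 18 h, with a difference of 2 ± 0.595 (adjusted p = 0.0146). The call of its B copy (G04490_B, 1.59 ± 0.606, adjusted p = 0.0433) was lost in 8 of 11 fits without a single library. The 5 regulators were named after their values were seen.

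**Figure D3:**
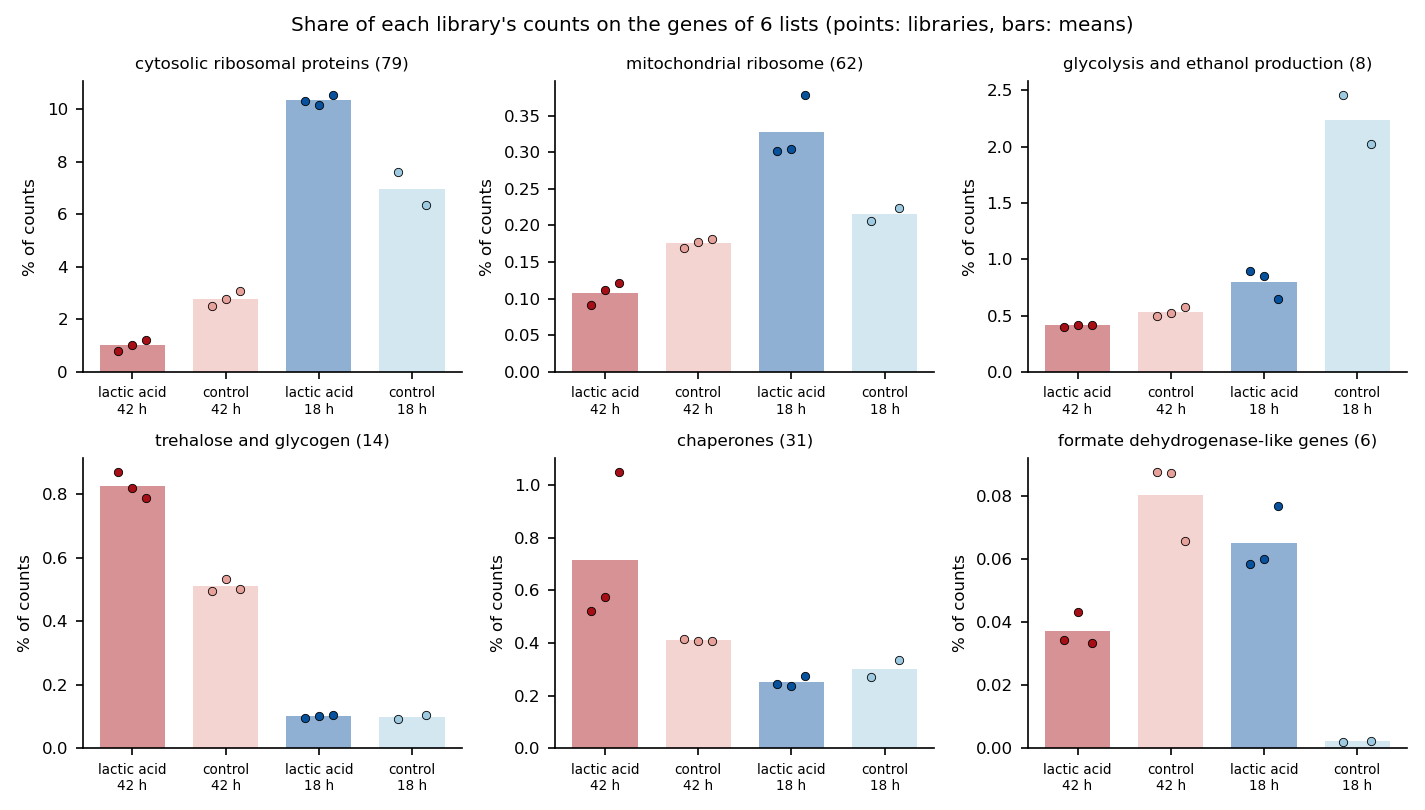
Points give the share of each library's counts, in %, on the genes of 6 lists (number of genes in parentheses), bars the group means, with lactic acid left of control at each time (n = 3, and 2 for control at 18 h). Ribosomal protein genes lie below control at 42 h and above it at 18 h (mean 1.01% in lactic acid and 2.78% in control at 42 h, 10.3% in lactic acid and 6.97% in control at 18 h). Control at 18 h stands apart for glycolysis and for the formate dehydrogenase-like genes, and lactic acid at 42 h replicate 3 for chaperones.

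Of 14 genes of trehalose and glycogen metabolism 6 were positive and none negative (edgeR and DESeq2 alike), with a median difference of 0.95, and with library totals 5 were positive and 2 negative. At 42 h 4 of the 14 were upregulated, against 683 of all 9683 genes. Their share of the counts at 42 h, a sum to which the best expressed members contribute most, was 0.789 to 0.871% in lactic acid and 0.497 to 0.534% in control, and at 18 h it was 0.0969 to 0.105% in lactic acid and 0.0914 and 0.104% in control, where the groups overlapped. IGD1, an inhibitor of glycogen breakdown, had 1840, 1198 and 1112 CPM in lactic acid and 298, 317 and 276 CPM in control at 42 h in the B copy (A09670_B, chromosome 1, 1948477 to 1948995). At 18 h this gene had 1.46, 1.44 and 2.02 CPM in lactic acid and 5.37 and 6.45 CPM in control. It was upregulated at 42 h and downregulated at 18 h, with a difference of 4.08 ± 0.329 (adjusted p = 7.36e-06). The A copy (B09630_A) had a difference of 2.52 ± 0.246 (adjusted p = 2.06e-05). TSL1/TPS3, for a regulatory subunit of trehalose synthase, had 1958, 1989 and 2091 CPM in lactic acid and 653, 679 and 620 CPM in control at 42 h for B03200_A, with 143 to 185 CPM in all libraries at 18 h and a difference of 1.93 ± 0.167 (adjusted p = 1.05e-05). The other copy, G03430_B, had 1.57 ± 0.154.

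Of 22 genes of the glyoxylate cycle, gluconeogenesis and acetate use 7 were positive and 1 negative. At 42 h 5 of the 22 were upregulated and 1 downregulated, against 683 and 959 of all 9683 genes, and the median response was 0.07. ICL1, for isocitrate lyase of the glyoxylate cycle, had 2777, 2388 and 1963 CPM in lactic acid and 583, 605 and 672 CPM in control at 42 h in the A copy (B01580_A), and 16.9, 16.9 and 15.1 CPM in lactic acid and 15.3 and 15.2 CPM in control at 18 h. The differences were 1.84 ± 0.220 in the A copy and 2.22 ± 0.253 in the B copy (G05050_B). Glycerol kinase, encoded by GUT1, had 13930, 6501 and 3312 CPM in lactic acid and 1706, 1790 and 1681 CPM in control at 42 h for the B copy (G04130_B), against 9.48, 12.4 and 13.3 CPM in lactic acid and 12.5 and 17.7 CPM in control at 18 h. The spread among the lactic acid libraries at 42 h was wide, all of them were above control, and the difference was 2.57 ± 0.598 (adjusted p = 0.00393). For the A copy (B02500_A) a lactic acid library at 42 h was below control, the difference was 1.77 ± 0.670 (adjusted p = 0.0424), and the call was lost in 9 of 11 fits without a single library. C00620_A, related to STL1, the glycerol transporter of the plasma membrane, had 5416, 4065 and 2590 CPM in lactic acid and 843, 856 and 729 CPM in control at 42 h, and 15.3, 15.2 and 22.3 CPM in lactic acid and 35.4 and 49.0 CPM in control at 18 h, with a difference of 3.58 ± 0.385 (adjusted p = 3.71e-05).

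In the list for the citric acid cycle 4 of 14 genes were positive and none negative (2 positive without lactic acid at 42 h replicate 1), with a median response of 0.91 at 42 h and 0.005 at 18 h. The homolog of FRD1/OSM1, the soluble fumarate reductase, had 1758, 1909 and 2004 CPM in lactic acid and 536, 595 and 552 CPM in control at 42 h for B05160_A. Its levels at 18 h were 527, 551 and 471 CPM in lactic acid and 950.3 and 784 CPM in control, and the difference was 2.50 ± 0.194 (adjusted p = 6.80e-06). Lactic acid libraries were above control at the later time and below it at the earlier one. The other copy, H04830_B, had 1.52 ± 0.298. Both copies are among the 4 positive genes of the list, though fumarate reductase is not an enzyme of the cycle itself. SDH1 (B08720_A), for the flavoprotein of succinate dehydrogenase, had 1.3 ± 0.509 (adjusted p = 0.0488) and lost its call in 9 of 11 fits without a single library. Nuclear genes of the respiratory chain and ATP synthase had 2 positive genes and 1 negative gene of 22, but none positive and 12 negative with library totals. Their median response was above zero at both times, at 1 at 42 h and 1.33 at 18 h. ATP4 (A04560_B), for a subunit of ATP synthase, was upregulated at both times and had a difference of -0.86 ± 0.244. The positive call of NDE2/NDE1 (A01390_B), the external NADH dehydrogenase, at 1.51 ± 0.498 (adjusted p = 0.0237), was lost without lactic acid at 42 h replicate 1 and without 3 other libraries in turn. None of the 13 genes of the mitochondrial genome was called by edgeR or DESeq2, or had an unadjusted p below 0.05, with median responses of 1.15 at 42 h and 0.81 at 18 h.

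Peroxisomal genes had 8 positive and 1 negative of 30, with a median of 0.11 that turned to -0.43 with library totals. PXA1, for a subunit of the transporter that brings long-chain fatty acids into the peroxisome, had 1660, 1587 and 1157 CPM in lactic acid and 894, 775 and 693 CPM in control at 42 h for the A copy (B05810_A). The 18 h levels were 11.9, 10.6 and 14.4 CPM in lactic acid and 22.2 and 33.5 CPM in control. The difference was 2.08 ± 0.296 (adjusted p = 0.000204) in the A copy and 2.13 ± 0.385 (adjusted p = 0.000843) in the B copy (H04180_B). PNC1, for nicotinamidase of the NAD+ salvage pathway, had 1699, 1895 and 2300 CPM in lactic acid and 372, 402 and 330.0 CPM in control at 42 h for the B copy (G04430_B), and 23.5 to 33.9 CPM in all libraries at 18 h. Its difference was 2.11 ± 0.227 (adjusted p = 3.65e-05). The gene beside it, G04440_N, lies 408 bases away and has no description. It had 149.5, 192 and 191 CPM in lactic acid and 18.9, 21.8 and 15.3 CPM in control at 42 h, and 0.663 to 2.07 CPM in all libraries at 18 h, with a difference of 4.29 ± 0.384 (adjusted p = 1.28e-05). G04440_N was singled out after its values were seen. The A copy of PNC1 (B02200_A) had 1.54 ± 0.208.

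**Figure D4:**
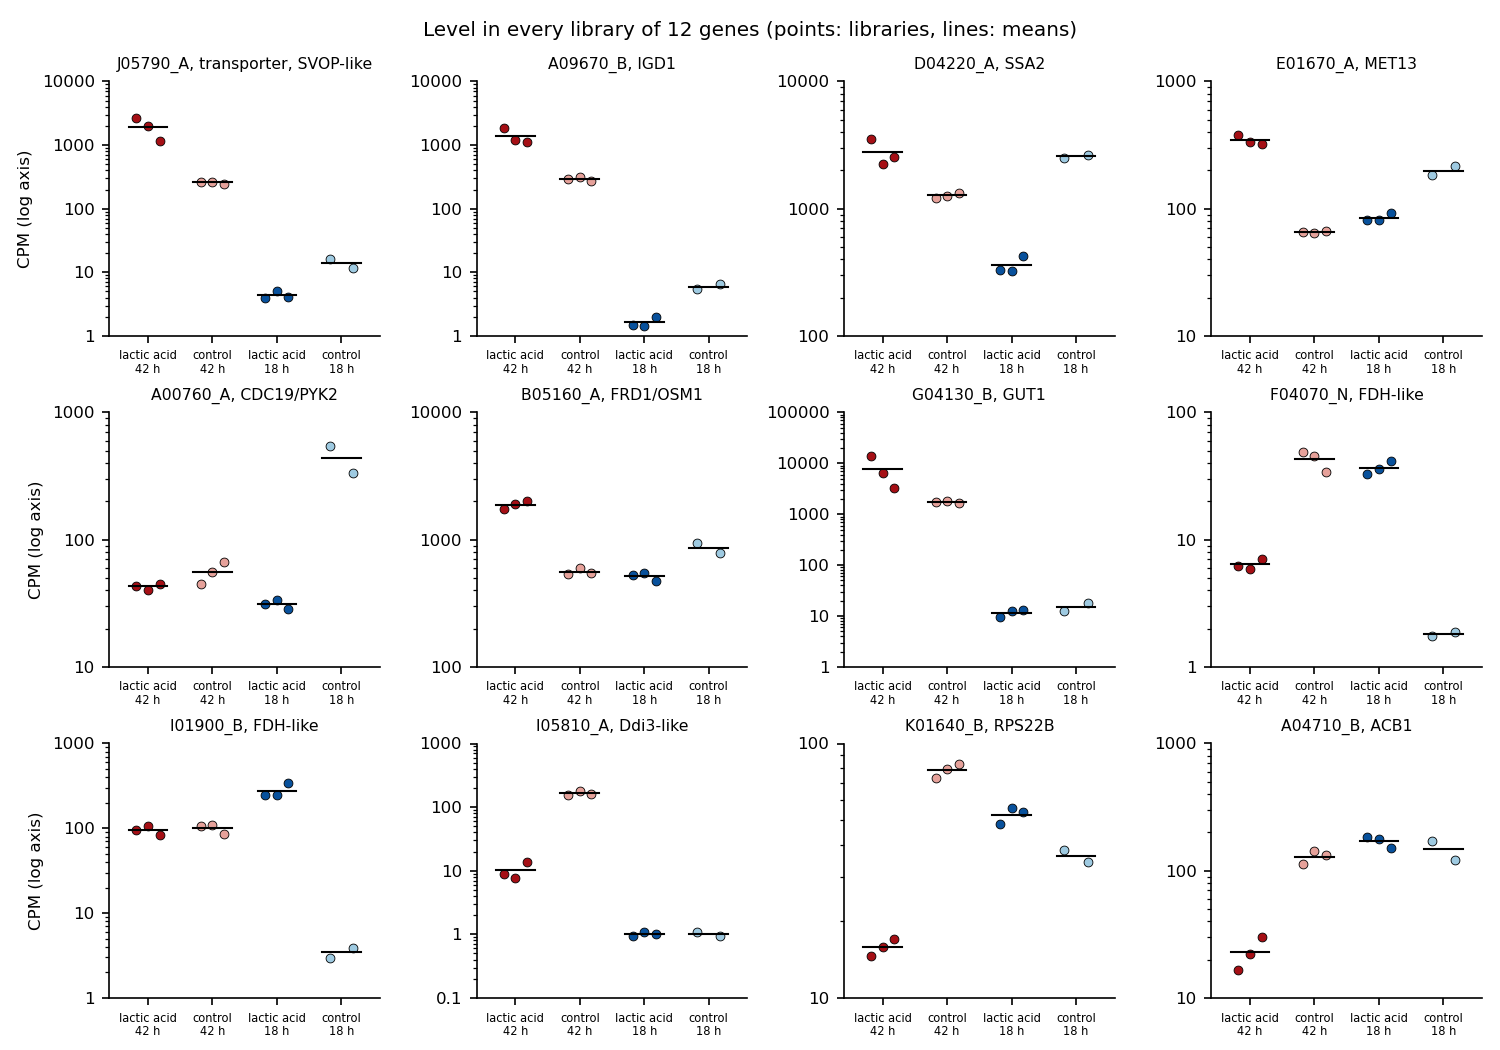
CPM in each library on a log axis for 12 genes; points are libraries, horizontal lines group means, with lactic acid left of control at each time (n = 3, and 2 for control at 18 h). IGD1, SSA2 and MET13 change side between the times. CDC19/PYK2 differs at 18 h, and ACB1 and the Ddi3-like gene at 42 h. RPS22B lies below control at 42 h and above it at 18 h, by less.

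Chaperone genes were positive in 8 of 31 members and negative in none, with a median difference of 0.48, but with library totals 6 were positive and 3 negative and the median was -0.06. Their share of the counts was 0.521, 0.576 and 1.05% in lactic acid, the highest in replicate 3, and 0.409 to 0.415% in control at 42 h. At 18 h it was 0.238 to 0.275% in lactic acid, against 0.270 and 0.334% in control. Without lactic acid at 42 h replicate 3 the count was 7. HSC82/HSP82 (A03620_N), for the cytosolic Hsp90 chaperone, had 1464, 1003 and 1243 CPM in lactic acid and 904, 836 and 923 CPM in control at 42 h, and 172, 143 and 217 CPM in lactic acid and 1042 and 1392 CPM in control at 18 h. Its difference was 3.26 ± 0.284 (adjusted p = 1.09e-05). SSA2, for a cytosolic Hsp70, was outside the list and had the same pattern. Its copy D04220_A (chromosome 4, 874781 to 876709) had 3520, 2234 and 2555 CPM in lactic acid and 1222, 1268 and 1331 CPM in control at 42 h, and 333, 326 and 425 CPM in lactic acid and 2504 and 2643 CPM in control at 18 h. The differences were 3.95 ± 0.273 (adjusted p = 3.44e-06) for D04220_A and 3.81 ± 0.231 (adjusted p = 1.28e-06) for L05000_B. For these Hsp90 and Hsp70 genes lactic acid at 18 h was the group that stood lowest.

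BTN2/CUR1, for factors that sort misfolded proteins, had 125, 127 and 358 CPM in lactic acid and 77.3, 70.5 and 58.7 CPM in control at 42 h in the copy A07690_B. The 18 h levels were 8.42, 8.03 and 7.30 CPM in lactic acid and 31.7 and 34.4 CPM in control, with a difference of 3.62 ± 0.517 (adjusted p = 0.000204). The copy J03990_A had 3.14 ± 0.479, with 103, 104.6 and 281 CPM in lactic acid at 42 h, so that replicate 3 was again the highest. Homologs of SSA3/SSA4 and APJ1 rose at 42 h without a called change at 18 h. SSA3/SSA4 (B07710_A), a stress-induced Hsp70, had 1078, 1111 and 2317 CPM in lactic acid and 531, 569 and 545 CPM in control at 42 h, and a difference of 2.16 ± 0.379 (adjusted p = 0.000714). APJ1, an Hsp40-type co-chaperone, had 1.90 ± 0.274 in the A copy (B03640_A) and 2.21 ± 0.301 in the B copy (G02980_B). The polyubiquitin gene UBI4 (B02580_N) had -0.20 ± 0.329 (adjusted p = 0.626), and proteasome genes had 2 positive and 3 negative of 29. Among the positive genes was RPN7 (B04850_B), for a lid subunit, at 1.71 ± 0.395.

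Oxidative stress defence had 11 positive and 5 negative genes of 35 with TMM, but 7 positive and 12 negative with library totals. Of the positive members 8 are genes of the pentose phosphate pathway, which supplies NADPH and ribose. Glucose-6-phosphate dehydrogenase, ZWF1, had 436, 354 and 307 CPM in lactic acid and 199, 206 and 204 CPM in control at 42 h in the A copy (B00260_A), and 120.3, 116 and 115 CPM in lactic acid and 268 and 223 CPM in control at 18 h. Its difference was 1.92 ± 0.196 (adjusted p = 2.81e-05), and that of the B copy (G06360_B) was 1.77 ± 0.271. Homologs of transketolase TKL2/TKL1 had 2.50 ± 0.232 (G02250_A) and 2.41 ± 0.255 (B04360_A), and those of transaldolase NQM1/TAL1 had 2.21 ± 0.468 (A04630_B) and 1.95 ± 0.390 (E04270_A). Each of these was downregulated by lactic acid at 18 h and not called at 42 h. Catalase CTT1 (B04860_N) had 1655, 895 and 471 CPM in lactic acid and 2269, 2409 and 2374 CPM in control at 42 h, 19.2 to 23.8 CPM in lactic acid and 77.5 and 106 CPM in control at 18 h, and a difference of 0.87 ± 0.502 (adjusted p = 0.163). It was downregulated at both times. The pentose phosphate genes other than E04270_A were picked after their values were seen.

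The positive gene with the largest difference was J05790_A (chromosome 10, 1154240 to 1155967), related to transporters of the major facilitator superfamily. It had 2713, 1984 and 1146 CPM in lactic acid and 264, 267 and 247 CPM in control at 42 h, against 3.91, 5.01 and 4.04 CPM in lactic acid and 16.3 and 11.9 CPM in control at 18 h. It was upregulated at 42 h, by 2.91, and downregulated at 18 h, by 1.70, which gave 4.61 ± 0.405 (adjusted p = 1.14e-05). M05170_B, of the same description, had 3.73 ± 0.404 (adjusted p = 3.84e-05). SSP1, which in S. cerevisiae shapes the forespore membrane in meiosis, had 181, 143 and 93.9 CPM in lactic acid and 8.91, 9.02 and 10.95 CPM in control at 42 h in the copy D02790_B, and 4.33 to 6.27 CPM in all libraries at 18 h. Its difference was 4.14 ± 0.345 (adjusted p = 8.85e-06), and that of the copy F01540_A was 3.94 ± 0.548 (adjusted p = 0.000176). B09620_A, named after IFM1 for mitochondrial translation initiation, had 3.50 ± 0.552 and lies 243 bases from the IGD1 copy B09630_A, so that shared reads cannot be told apart.

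ROX1 (B04170_A, chromosome 2, 804060 to 804791), the repressor of hypoxic genes, had 754, 239.8 and 258 CPM in lactic acid and 168, 185 and 164 CPM in control at 42 h, and 25.4, 32 and 25.7 CPM in lactic acid and 174 and 137 CPM in control at 18 h. Lactic acid at 42 h replicate 1 was high, the groups did not overlap at either time, and the difference was 3.77 ± 0.532 (adjusted p = 0.000192). HEM13 (C01190_A), for coproporphyrinogen oxidase of heme synthesis, had 209.9, 91.9 and 76.9 CPM in lactic acid and 102, 102 and 96.6 CPM in control at 42 h, where the groups overlapped, and 47.8, 53.3 and 19.8 CPM in lactic acid and 507 and 227 CPM in control at 18 h. Its difference was 3.52 ± 0.632 (adjusted p = 0.000826). MAE1 (D04720_A), for the mitochondrial malic enzyme, had 1019, 387 and 229.9 CPM in lactic acid and 245, 258 and 246 CPM in control at 42 h, with 1 lactic acid library below control. At 18 h it had 63.1, 70.6 and 48.6 CPM in lactic acid and 416 and 265 CPM in control, and the difference was 3.61 ± 0.619 (adjusted p = 0.000615).

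In amino acid and one-carbon metabolism the named genes moved in both directions. MET13, for methylenetetrahydrofolate reductase, which supplies the methyl group of methionine, had 377, 333 and 323 CPM in lactic acid and 66.0, 64.1 and 67.2 CPM in control at 42 h in the A copy (E01670_A, chromosome 5, 325039 to 326838). At 18 h it had 81.2, 81.1 and 93.2 CPM in lactic acid and 183 and 216 CPM in control. The response turned from a called decrease at 18 h to a called increase at 42 h, and the difference was 3.62 ± 0.166 (adjusted p = 2.55e-07). The B copy (M04240_B) had 3.55 ± 0.209 (adjusted p = 1.21e-06). Of 37 amino acid synthesis genes 8 were positive and 4 negative, but 3 positive and 8 negative with library totals. Asparagine synthetase, ASN2/ASN1, had 140.1, 106 and 103 CPM in lactic acid and 119, 133 and 155 CPM in control at 42 h for H01970_B, and 98.7, 106 and 93.4 CPM in lactic acid and 647 and 582 CPM in control at 18 h. Its difference was 2.41 ± 0.212 (adjusted p = 1.14e-05), and that of B07990_A was 2.15 ± 0.202. LYS20/LYS21 (G05520_B), for homocitrate synthase of lysine synthesis, was upregulated at 18 h, by 2.09, and had -1.17 ± 0.326 (adjusted p = 0.0105), a call lost without control at 18 h replicate 3.

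Cell wall genes had 11 positive and 5 negative calls of 54, but 4 positive and 8 negative with library totals. TOS1, for a cell wall protein, had 49.1, 42.9 and 47.0 CPM in lactic acid and 47.1, 49.6 and 51.0 CPM in control at 42 h in the B copy (H03390_B), and 55.3, 65.0 and 57.4 CPM in lactic acid and 321 and 295 CPM in control at 18 h. Its difference was 2.29 ± 0.147 (adjusted p = 2.22e-06), and that of the A copy (B06600_A) was 2.19 ± 0.163. Glucan synthase, GSC2/FKS1, had 1.27 ± 0.260 (A04790_N) and 1.02 ± 0.266 (E04110_A). The call of A04790_N was lost with library totals, with all 12 libraries and with the length trend removed. That of E04110_A was lost under the same alternatives, with the other scalings, limma-voom and DESeq2, and without any of 4 libraries in turn. Ergosterol synthesis had 4 positive and 1 negative of 16, with a median of 0.49 that turned to -0.05 with library totals. Squalene epoxidase, ERG1, had differences of 0.18 ± 0.242 (E03850_A) and 0.20 ± 0.221 (A05050_B), neither of them called. The oxysterol-binding protein gene HES1/KES1 (H04210_B) had 2.07 ± 0.289 (adjusted p = 0.000178).

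Among 9 genes of the plasma membrane proton pump, weak acid export and the Haa1 regulon, 2 were positive and none negative. Both were homologs of the ceramidase gene YPC1/YDC1, with 136, 120 and 126 CPM in lactic acid and 101, 86.5 and 98.7 CPM in control at 42 h for A04400_B, and 5.24, 5.56 and 3.73 CPM in lactic acid and 14.8 and 17.6 CPM in control at 18 h, and a difference of 2.15 ± 0.204 (adjusted p = 1.83e-05). The aquaglyceroporin gene FPS1 (B02520_A) had 1.02 ± 0.541 (adjusted p = 0.129) and the drug efflux pump gene YOR1 (A06460_B) had -0.03 ± 0.155 (adjusted p = 0.894). The vacuolar proton pump had 4 positive and 2 negative genes of 18, but 3 positive and 5 negative with library totals. VPH1, for a subunit of its membrane sector, was positive in the A copy (B06810_A) at 1.77 ± 0.240 and in the B copy (H03180_B) at 1.82 ± 0.243, and VMA1, for the catalytic subunit, at 1.75 ± 0.235 (G05560_A) and 1.46 ± 0.165 (B01070_A). VMA2, for a subunit of the peripheral sector, was not called in either copy (0.25 ± 0.172 for B04520_B and -0.28 ± 0.198 for G02050_A), so that the members did not move as a unit.

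Vacuolar proteases and autophagy had 11 positive and 1 negative of 49 with TMM, but 2 positive and 10 negative with library totals. PRB1/YSP3 (B01730_A), for vacuolar proteinase B, had 3730, 3893 and 3914 CPM in lactic acid and 1203, 1166 and 1111 CPM in control at 42 h, 213 to 266 CPM in all libraries at 18 h, and a difference of 1.85 ± 0.191 (adjusted p = 2.96e-05). The negative gene was ATG41/ICY1 (B08430_A), with 15.1 to 96.6 CPM in lactic acid at 18 h, at -2.55 ± 0.747 (adjusted p = 0.0135), a call lost without control at 18 h replicate 3. Iron genes had 5 negative calls and none positive of 38 by edgeR and by DESeq2, with 9 negative and 8 positive at an unadjusted p below 0.05. At 42 h 10 of the 38 were upregulated and 2 downregulated, and at 18 h 10 were upregulated and 1 downregulated. Over all 9683 genes 683 were upregulated at 42 h and 412 at 18 h. The median response of the list was 0.61 at 42 h and 0.425 at 18 h, and the median difference was 0.04. The list includes siderophore transporter genes that the study singled out on these samples as upregulated at the earlier time. A negative difference was thus favored in advance for them, and their calls are not independent evidence of a direction. The next example, O00120_N, is among these genes. A probable siderophore iron transporter (O00120_N) had 53.1, 53.9 and 54.3 CPM in lactic acid and 60.0, 53.9 and 49.4 CPM in control at 42 h, and 66.7, 65.1 and 67.8 CPM in lactic acid and 21.3 and 21.7 CPM in control at 18 h, with a difference of -1.65 ± 0.138 (adjusted p = 8.85e-06). Of the remaining lists, mitochondrial protein import had 6 negative and 1 positive of 39 (none of either with the length trend removed, and 3 and none without lactic acid at 42 h replicate 1), assembly of the respiratory chain 6 negative and 4 positive of 57, and DNA replication and the cell cycle 7 negative and 4 positive of 59.

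Since A and B copies of a gene lie in the same cell, the ratio of their counts can be compared between groups without any scaling of libraries. Among 2536 pairs, each with 10 counts or more in all 11 libraries, the A:B ratio responded differently at the 2 times in 298 pairs toward A (11.8%) and in 343 pairs toward B (13.5%), by limma on log2 ratios (adjusted p below 0.05). The change was at least 1 on the log2 scale in 143 pairs. The median absolute change of the ratio was 0.27, against a median absolute difference of 0.57 for the A and B genes themselves. In 2533 pairs both genes were tested singly. Both copies were positive in 251 of these pairs and both negative in 141, and in 399 pairs only 1 copy was called, with the ratio called in 201 of them. In no pair was 1 copy called positive and the other negative by edgeR, though 21 pairs had opposite signs with both copies at an adjusted p below 0.05 and 33 with both at an unadjusted p below 0.05. The differences of A and B copies correlated at r = 0.844 across the 2533 pairs, which share their libraries. Without control at 18 h replicate 1 the ratio was called in 197 pairs toward A and 234 toward B.

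The pair with the largest shift toward A was MAK5 (C04200_A on chromosome 3, 790518 to 792914, and A05710_B on chromosome 1, 1178772 to 1181186), for an RNA helicase of large subunit assembly. The A copy held 87.1, 86.3 and 85.4% of the pair's counts in lactic acid and 58.9, 58.1 and 51.9% in control at 42 h, against 36.9, 36.3 and 36.0% in lactic acid and 43.3 and 42.6% in control at 18 h. The ratio changed by 2.68 ± 0.158 (limma, SE, adjusted p = 1.32e-05), with the A copy called positive at 1.86 and the B copy, at -0.81, not called. The next gene on both chromosomes, 85 bases away for A and 82 bases for B, is BMT2, for an rRNA methyltransferase. Its A copy (C04210_A) held 87.0 to 87.5% in lactic acid and 61.4 to 67.9% in control at 42 h, with 45.7 to 50.4% in all libraries at 18 h, with a change of 2.05 ± 0.155 (adjusted p = 5.35e-05). The neighboring pairs thus shifted alike, and reads shared between neighbors cannot be told apart. FET3, the ferroxidase of iron uptake, held 53.9 to 60.1% of its counts on the A copy (C00700_A) in lactic acid and 27.7 to 28.9% in control at 42 h, with 35.3 to 41.8% in lactic acid and 38.9 and 42.4% in control at 18 h (change 1.85 ± 0.185, adjusted p = 0.000135). For COA3, of cytochrome c oxidase assembly, the A share in lactic acid was 30.6 to 44.9% at 42 h and 11.7 to 15.2% at 18 h, against 43.4 to 49.7% in control at both times (change 1.77 ± 0.305, adjusted p = 0.0024).

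Toward B, the largest change was that of LSM2 (D03850_A and F02580_B), for a subunit of the Lsm rings of mRNA decay and splicing. Its A copy held 11.3, 10.7 and 8.57% of the counts in lactic acid and 34.4, 34.1 and 38.5% in control at 42 h, with 40.6 to 45.1% in lactic acid and 41.0 and 46.2% in control at 18 h. The ratio shifted at the later time alone, and the change was -2.29 ± 0.205 (adjusted p = 0.000102). MET17, for homocysteine synthase of the sulfur pathway, shifted at the earlier time alone. The A share of MET17 (D04010_A and L05220_B) was 64.2, 68.6 and 71.1% in lactic acid and 66.8, 69.3 and 67.4% in control at 42 h, and 86.0, 89.0 and 88.0% in lactic acid and 63.5 and 62.4% in control at 18 h (change -2.06 ± 0.188, adjusted p = 0.000102). MSS11, for a regulator of filamentous growth, turned its ratio round, with an A share of 31.8 to 35.3% in lactic acid and 49.9 to 54% in control at 42 h, with 61.6 to 63.1% in lactic acid and 52.9 and 54.6% in control at 18 h. Both MSS11 copies were positive, at 1.02 for C07200_A and 2.62 for A02200_B, and the ratio changed by -1.61 ± 0.126 (adjusted p = 6.07e-05). TIF35 changed by -1.97 ± 0.315, TMA17 by -1.85 ± 0.255 and, toward A, MCH4 by 1.87 ± 0.303.

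**Figure D5:**
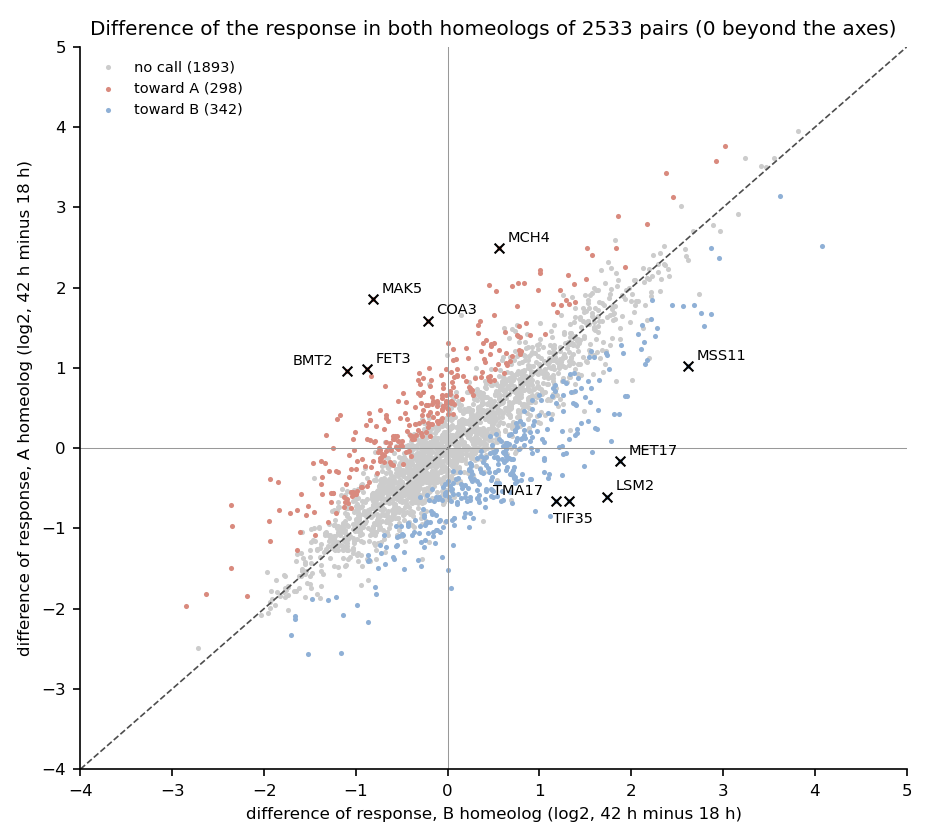
Each point is 1 of the 2533 pairs with both genes tested, with the difference of the responses (42 h minus 18 h, log2) of the A copy on the vertical axis and of the B copy on the horizontal axis; the dashed line marks equal differences. Red and blue mark pairs whose ratio was called toward A (298) or toward B, and crosses mark the 10 named pairs. Most pairs lie along the line (r = 0.844), and no pair has its copies called in opposite directions.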

How the data were processed

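RNA of 12 rRNA-depleted libraries was sequenced. The authors aligned reads with Bowtie 1.1.2 without mismatches, counted them per gene with HTSeq 0.6.0 and deposited raw counts, discarding reads that fit several places. Tables normalized by the authors with edgeR 3.18.1 and tables of duplicated genes were not used here. From the counts, 14 pseudogene and plasmid entries (0.0575 to 0.344% of a library) were left out. Genes that reached 1 CPM in 3 or more libraries of lactic acid or of control were tested with edgeR 4.0.16 (R 4.3.3): TMM factors, 4 group means, quasi-likelihood test, Benjamini-Hochberg adjustment. The approximate SE is the absolute log2 difference over the square root of F. Log2 ratios of A to B counts (pseudocount 0.5) were tested with limma 3.58.1. The gene test and the pair ratio test were tried on simulated counts, and the other steps were not.

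Names came from the annotation for 1607 genes, from the homeolog for 1277, and for 995 only from tables of genes the study picked, so that lists cover part of their groups. All 10099 entries matched the assembly ASM198439v2, whose coordinates are given. Of 2550 pairs at hand 2536 were tested. The contrast, lists and rules were chosen with earlier results of these data known. Named were the 15 described genes of each sign with the largest called difference, at least 10 CPM in a group and separated libraries; from each of 28 lists the 2 best expressed members and the leading call; and 5 pairs of each sign. Some were left out for space, and further members were picked after their values were seen. No test of a list was made. Alternatives were other scalings, filters, thresholds and pseudocounts, limma-voom, DESeq2 1.42.0, all 12 libraries, a replicate block, removal of the length trend, and each library left out; where this leaves 1 control library at 18 h, it is assumed to vary like the other groups. Use of strand is not given in the sources used here.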

Additional observations from a re-analysis of the deposited data

Results flagged for a closer look

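Each value here is a difference between the response at 42 h and the response at 18 h that passed its test. The counts are 1505 positive and 895 negative genes, and 298 homeolog pairs toward A and 343 toward B. Among the genes and pairs named, those called in opposite directions at the 2 times are listed with the difference on the log2 scale. Upregulated at 42 h and downregulated at 18 h were the transporter gene J05790_A (4.605), the undescribed gene G04440_N beside PNC1 (4.29), IGD1 A09670_B (4.079), SSA2 D04220_A (3.955) and L05000_B (3.812), ROX1 B04170_A (3.767) and BTN2/CUR1 A07690_B (3.623) and J03990_A (3.138). So were MET13 E01670_A (3.616) and M04240_B (3.553), MAE1 D04720_A (3.614), the STL1-related gene C00620_A (3.58) and IFM1 B09620_A (3.5). Downregulated at 42 h and upregulated at 18 h were the formate dehydrogenase-like genes F04070_N (-7.07) and N02280_N (-6.282), NCE101 B04990_N (-3.026) and PRX1 B07620_A (-2.57). Among the named pairs, the A:B ratio of MAK5 (2.679) rose at 42 h and fell at 18 h, and that of MSS11 (-1.608) fell at 42 h and rose at 18 h.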

How the results depend on the processing

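With library totals 628 genes were positive and 2608 negative, and with upper-quartile scaling 1422 were negative. Against a 2-fold minimum (glmTreat) the counts were 492 and 224, and by adjusted p alone 2795 and 2407. The other scalings, filters and tools stayed within 1.5 times of both counts, with 1246 positive and 1179 negative genes with all 12 libraries. Leaving out single libraries gave 1210 to 1712 positive and 793 to 1020 negative genes, lowest without lactic acid at 42 h replicate 1 and highest without replicate 3. For ratios it gave 197 to 340 pairs toward A and 234 to 408 toward B, lowest without control at 18 h replicate 1. No named gene or pair that was called turned its direction in these alternatives. Some list medians turned with library totals, as given above, where the median of all genes was -0.51. The replicate block gave 1466 positive and 906 negative genes, and 276 and 324 pairs. Whether samples of the same number share more than that number is not given in the sources. Their deviations from the group means correlated at -0.182 to 0.284, over 0.1 in 7 of 15 comparisons. With 2 or 3 libraries per group these values cannot settle the question. Control at 18 h, with 2 libraries, enters every difference, and time and growth phase cannot be told apart. The sources do not say how many fermentations were run, so an effect of the vessel cannot be told apart from that of lactic acid.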
